A study of Mus musculus with 32 samples.

Results

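The question was whether loss of Hbo1 changes gene expression in LSK cells in the same way when the gene is deleted by 2 different Cre systems. LSK cells are bone marrow cells that lack lineage markers and carry Sca-1 and Kit, the compartment that contains the blood stem cells. All 16 LSK libraries of the 32 in the series were used, 4 in each of 4 groups. The quantity described is the interaction, which is the knockout minus control difference with Mx1Cre less the knockout minus control difference with CreER, on the log2 scale. It was taken for 14102 genes that passed a filter on low counts, of 27179 in the count table. A negative interaction means that a gene responded to the knockout more downward, or less upward, with Mx1Cre than with CreER.

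All mice were adult C57BL/6 animals. CreER stands for RosaCreERT2, a Cre expressed from the Rosa26 locus and activated by tamoxifen. Mx1Cre is driven by the interferon-responsive Mx1 promoter and was switched on with polyIC, which induces interferon. Neither driver is limited to blood cells. In the CreER knockouts both alleles of Hbo1 fl/fl mice were deleted after tamoxifen, and in the Mx1Cre knockouts both were deleted after polyIC. By their titles the controls of each Cre line were Hbo1 fl/+ mice given the same agent, in which 1 allele was deleted, whereas the treatment protocol describes them as Cre-expressing wild types. All 4 groups therefore carried an active Cre and had received an inducing agent. The Cre line, the agent and the set of mice changed together, so these cannot be told apart, and the time since induction is not stated in the labels. Each library came from its own mouse.

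Hbo1, for which the current symbol is Kat7, encodes a histone acetyltransferase, the enzyme of a complex in which it works with scaffold proteins of the BRPF and JADE families and with ING4, ING5 and MEAF6. The complex acetylates histone H3 and H4 tails and is known for acetylation of H3 at lysine 14 near genes. In bone marrow, LSK cells hold both the dormant stem cells and the multipotent progenitors that have begun to express genes of single lineages at low level.

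Library totals ran from 8503104 to 18409271 counts, with a median of 12324345. Levels are given as CPM, read counts relative to the TMM-scaled library total, a scaling that assumes that the bulk of genes is unchanged between libraries. A single count was worth 0.0543 to 0.118 CPM. Sex-linked genes went against the label in 2 of the 16 libraries: CreER knockout 2, labelled female, held 232 CPM of 4 Y-linked genes and 0.757 CPM of Xist, and CreER knockout 3, labelled male, held 0.17 and 3470 CPM. The calls that change without these libraries are given at the end. Mx1Cre knockout 2 stood farthest from the mean of its own group over all genes, at a root mean square of 0.52 log2 against 0.352 to 0.496 in the other libraries. The slope of log2 CPM deviation on log2 exon length was -0.101, -0.144 and -0.157 in Mx1Cre knockouts 1, 3 and 4 and 0.0076 in Mx1Cre knockout 2. In the other groups it ran from -0.0805 to 0.0988.

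Kat7 (Entrez 217127, chromosome 11, 95271853 to 95310246 on mm10) was largely removed by both Cre lines. CreER controls held 71.9, 76.1, 55.0 and 72.2 CPM and CreER knockouts 0.525, 0.873, 0.85 and 1.25 CPM. Mx1Cre controls held 75.7, 76.0, 76.5 and 66.6 CPM and Mx1Cre knockouts 0.982, 1.32, 1.69 and 1.57 CPM. The knockouts thus kept 1.27% of their control mean with CreER and 1.89% with Mx1Cre. Between the knockouts Kat7 was higher with Mx1Cre by 0.67 ± 0.25 log2, which was called (edgeR adjusted p = 0.048). The interaction of Kat7 was 0.57 ± 0.28 (log2, SE) and was not called (edgeR quasi-likelihood test, Benjamini-Hochberg adjusted p = 0.21). Of the 10 subunits of the HBO1 complex, 0 had a called interaction with edgeR, 0 had an unadjusted p under 0.05, and 0 were called by DESeq2 or limma-voom. Removing the gene length trend brought calls for Kat7 (0.93) and for the scaffold subunit Jade2 (0.53), and with that trend centred neither was called.

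In LSK cells the response to the knockout was much broader with Mx1Cre. The interaction was called at an adjusted p of 0.05 for 616 genes, or 4.37% of those tested. Of these 519 were lower with Mx1Cre (3.68% of genes tested) and 97 were higher (0.688%). At an unadjusted p under 0.05 there were 3402 genes. The median interaction over all genes was -0.02, and 52.3% of genes lay below 0. Taken singly, the CreER knockout raised 221 genes (1.57%) and lowered 224 (1.59%), while the Mx1Cre knockout raised 2141 (15.2%) and lowered 2237 (15.9%). Among the 519 lower genes the median interaction was -1.69, with a median knockout effect of -0.20 with CreER and -1.86 with Mx1Cre. Among the 97 higher genes these medians were 0.66, -0.09 and 0.60. A difference past 2-fold was found in 394 of the lower genes (75.9%) and 23 of the higher genes (23.7%), against 9.95% of all genes tested. These values describe genes chosen by the same test. The lower genes had a median exon length of 3796 bases, the higher genes 1874 and all tested genes 2619.

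**Figure D1:**
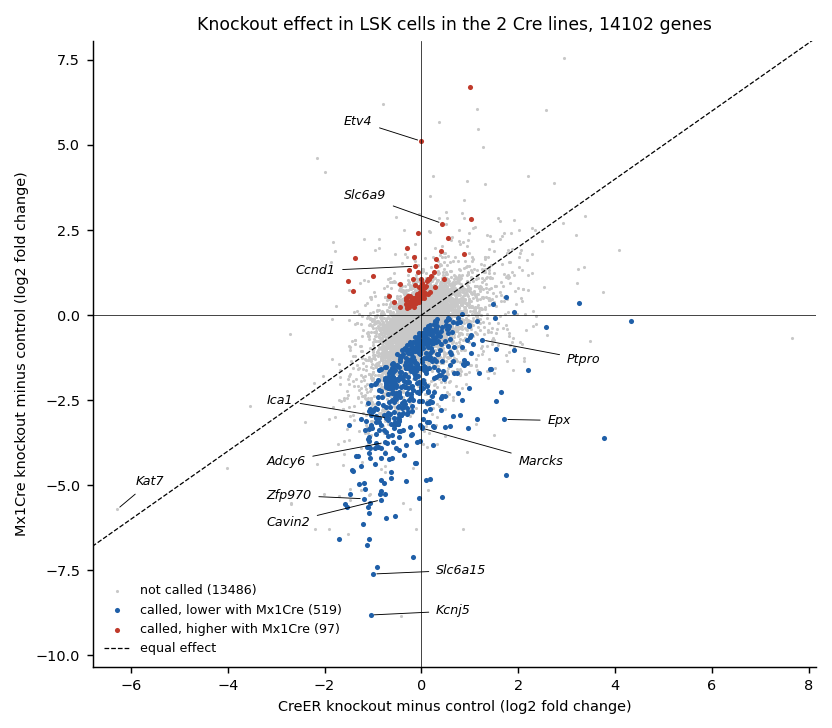
Knockout minus control log2 fold change of each of 14102 genes with CreER (x axis) and Mx1Cre (y axis) in LSK cells, from 4 libraries per group. Blue points are the 519 genes with a called lower interaction, red points the 97 called higher, grey points the rest, and the dashed line marks equal effects. Most blue points spread downward along y while staying near 0 on x, and Kat7 lies by the line at the far left. Fitted values of genes without counts in a group, such as Kcnj5 and Slc6a15, are not bounds.

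Most of the 519 lower genes were genes that the Mx1Cre knockout lowered. It lowered 487 of them, and 424 of these were not called with CreER in either direction. A total of 60 fell in both lines, less far with CreER. For 327 of the 487 (67.1%) the CreER estimate was below 0, compared with 77% of all 2237 genes lowered with Mx1Cre. In 357 of the 519 lower genes (68.8%) all 4 Mx1Cre knockouts were below all 12 other libraries, as in 6.76% of all genes tested. The CreER knockout raised 22 of the lower genes, and 19 of these were not called with Mx1Cre. Among the 97 higher genes the Mx1Cre knockout raised 90 and lowered 0, and 88 of the raised genes were not called with CreER. All these genes were chosen by a contrast of the same libraries. The counts and shares of this paragraph therefore follow in part from that choice and give no separate support for the interaction.

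The control groups also differed from each other, which bears on how an interaction is read. Between the controls 1643 genes (11.7%) were higher with Mx1Cre and 1411 (10%) were lower, and between the knockouts 3950 genes (28.0%) differed. For 359 interaction genes the controls were not called different and the knockouts were, 310 of them lower and 49 higher with Mx1Cre. For 133 the reverse held: the controls differed and the knockouts were not called. In 95 of these the gene was lower by the interaction and stood higher in Mx1Cre controls, and in 38 it was higher by the interaction and stood lower in Mx1Cre controls. In such genes the sign of the interaction largely follows from the control difference, which it contains with a minus sign. Which of the 2 controls was nearer to untreated LSK cells was not tested, because no untreated group was analysed here. These are sorted bulk samples, in which fewer cells of a type and less RNA per cell cannot be told apart.

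The clearest single genes were lost in Mx1Cre knockouts and partly or wholly kept in CreER knockouts. Ica1, which encodes a BAR domain protein of vesicle trafficking (chromosome 6, 8630527 to 8778540), held 45.4, 43.3, 49.1 and 39.9 CPM in CreER controls and 32.1, 25.7, 23.5 and 28.6 CPM in CreER knockouts. In Mx1Cre controls it held 39.2, 32.4, 33.2 and 28.9 CPM and in Mx1Cre knockouts 4.22, 4.18, 4.2 and 3.78 CPM. Controls and knockouts did not overlap in either line, but the knockouts kept 61.9% of the control mean with CreER and 12.2% with Mx1Cre. Its interaction was -2.33 ± 0.18 (edgeR adjusted p = 9.7e-07), and in 32 alternative analyses it ranged from -2.49 to -2.24.

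Zfp970 showed the same order at a larger size. It belongs to the KRAB zinc finger family, whose members are known as repressors of transposable elements, and sits at chromosome 2, 177464742 to 177479194. CreER controls held 13.8, 13.2, 15.2 and 13.7 CPM and CreER knockouts 7.05, 4.42, 7.39 and 5.76 CPM, which is 44% of the control mean. Mx1Cre controls held 13, 13.3, 13.2 and 17.8 CPM and Mx1Cre knockouts 0.196, 0.275, 0.484 and 0.369 CPM, or 2.31%. Controls of the 2 lines overlapped, and the 4 Mx1Cre knockouts lay far below every other library. The interaction was -4.21 ± 0.32 (edgeR adjusted p = 9.7e-07). Near-identical members of this family lie close by and can share reads, so the value may hold for a group of copies. Of 22 tested genes of the KRAB family list, Zfp970 was the only called member, beside 3.68% of all genes called lower, while 20 of 22 had an interaction below 0 and the median was -0.43 (-0.31 with the centred length trend removed).

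Marcks, a protein kinase C substrate that binds actin at the plasma membrane (chromosome 10, 37133243 to 37138926), changed in the Mx1Cre line alone by the single tests. It held 20.5, 21.3, 20.9 and 21.0 CPM in CreER controls and 18.6, 21.5, 21.2 and 22.8 CPM in CreER knockouts, which overlapped. In Mx1Cre controls it held 28.1, 27.5, 24.8 and 28.9 CPM and in Mx1Cre knockouts 2.36, 2.86, 1.29 and 4.42 CPM. The difference between the lines was itself called, at -3.33 ± 0.28 (edgeR adjusted p = 2.8e-06). Fmnl2, a formin that nucleates actin filaments, and Smo, the signal transducer of the Hedgehog pathway, behaved alike, with interactions of -2.70 ± 0.29 and -1.89 ± 0.21 and CreER effects of 0.11 and -0.10 that were not called. Of 19 tested genes of the MARCKS and actin membrane list, 3 were called, all lower (Marcks, Myo10 and Myo1d), and the list median was -0.11. Myo10 lost its call in 18 of 32 alternatives, among them those with the gene length trend removed.

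Adcy6, an adenylyl cyclase that makes cyclic AMP (chromosome 15, 98589978 to 98610287), fell in both lines. It held 74.8, 77.4, 55.2 and 90.3 CPM in CreER controls and 45.0, 44.1, 48.8 and 38.5 CPM in CreER knockouts. Mx1Cre controls held 66.5, 57.0, 42.0 and 48.7 CPM and Mx1Cre knockouts 2.65, 5.01, 3.07 and 4.98 CPM. The CreER knockouts sat at the level of the lower Mx1Cre controls, and the Mx1Cre knockouts below all other libraries. The interaction was -2.99 ± 0.27 (edgeR adjusted p = 5.9e-06). Of 26 tested genes of adenylyl cyclase and G protein signalling, 2 were called, both lower (Adcy6 and Rgs10), beside 3.68% of all genes, with a list median of -0.06. Rgs10 lost its call in 13 of 32 alternatives, among them the omission of any of 10 single libraries.

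Other genes among the 12 with the lowest p that were lower were Ppic, Gspt2, Fkbp9, Cd55, Trib2 and Cavin2. Ppic and Fkbp9, which encode prolyl isomerases of the secretory pathway, had interactions of -2.56 ± 0.23 and -2.17 ± 0.22, and Gspt2, a translation termination factor, -2.93 ± 0.29. These 3 fell in both lines, to 46.7%, 61.6% and 51% of control with CreER and to 8.11%, 13.6% and 6.7% with Mx1Cre. Cavin2, a coat protein of caveolae, fell from 22, 14.3, 10.3 and 11.7 CPM in Mx1Cre controls to 0.0982, 0.385, 0.161 and 0.645 CPM in Mx1Cre knockouts. With CreER it went from 28.6, 25.6, 15.7 and 26.8 CPM to 14.7, 18.6, 9.43 and 11.3 CPM, which overlapped and was not called. Its interaction was -4.59 ± 0.51, and those of the pseudokinase gene Trib2 and the complement regulator gene Cd55 were -3.52 ± 0.39 and -3.04 ± 0.32. For all of these genes the edgeR adjusted p was at most 5.3e-05, the value of Smo, and each kept its call in all 32 alternatives.

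**Figure D2:**
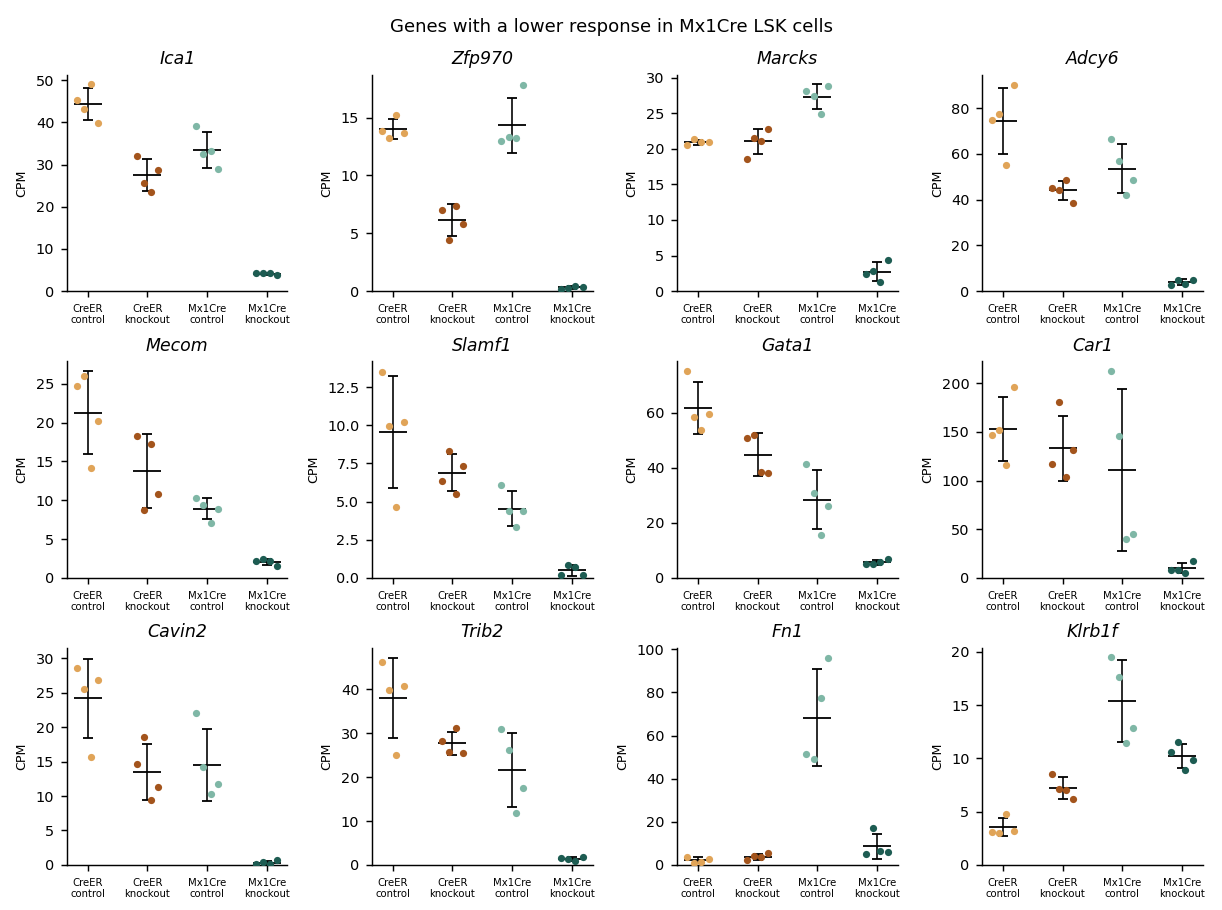
CPM of 12 genes with a called lower interaction in each of the 16 LSK libraries. Points are libraries, the bar is the group mean and the whiskers 1 SD (n = 4). Each panel has its own linear axis from 0. The Mx1Cre knockouts lie below all other libraries in each panel except those of Fn1 and Klrb1f. In the panel of Fn1 the Mx1Cre controls stand above all others, and in that of Klrb1f the CreER knockouts lie above their controls while the Mx1Cre knockouts lie mostly below theirs, with a slight overlap.

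In 8 called genes no count was found in any of the 4 Mx1Cre knockouts, as in 27 of all 14102 genes tested, called or not. For the 8 called genes the fold is given as a bound against 3 counts over the group, which covers counting error only. Kcnj5, a potassium channel gene of the G protein-gated family, held 6.37, 3.99, 3.85 and 3.69 CPM in Mx1Cre controls and was at least 77.0-fold lower in Mx1Cre knockouts. With CreER it went from 5.49, 5.45, 4.32 and 8.18 CPM to 2.63, 4.25, 2.12 and 2.26 CPM, 2.08-fold lower and not called. The knockouts of the 2 lines thus differed in whether the gene was detected at all at this depth. Slc6a15, a neutral amino acid transporter gene, was at least 33.3-fold lower with Mx1Cre and 2.01-fold lower with CreER. The other 6 were Dmd, Zfp30, Slco2a1, Pdgfd, Phactr1 and Pla2r1, chosen for naming after their values were seen, with bounds from 6.74-fold to 28.8-fold. Ptprf, Plxdc2, Kctd12b and Plk2, among the genes described here, held 1 or 2 counts in all in Mx1Cre knockouts. Ptprf was 144-fold lower than in Mx1Cre controls (95% exact interval 25.4 to 5720), Plxdc2 166-fold (29.3 to 6580), Kctd12b 120-fold (32.9 to 996) and Plk2 11.9-fold (2.95 to 104). With CreER the first 3 kept 30.7%, 45.7% and 46.4% of the control level and Plk2 stood at 120%.

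Genes of stem cell identity were among those lowered further with Mx1Cre. Of 22 stem cell transcription factors, 6 had a called lower interaction and 0 a higher one, beside 3.68% and 0.688% of all genes tested, with a list median of -0.42 against -0.02 for all genes. The same background shares hold for the counts of each list given here from this fit of all 16 libraries. They do not hold for list counts from the alternative analyses. The median knockout effect of these factors was -0.40 with CreER and -0.60 with Mx1Cre. The CreER knockout lowered 5 of them and raised 0, and the Mx1Cre knockout lowered 14 and raised 2. Their summed levels were lower in the knockouts of both lines, without overlap. With CreER, controls held 3470 to 4050 CPM and knockouts 2960 to 3420 CPM. With Mx1Cre these were 3420 to 3540 and 2770 to 2960 CPM. Gfi1b, a repressor needed for red cell and platelet development, held 74, 76, 45.8 and 67.5 CPM in CreER controls and 36, 33.5, 41.7 and 37.9 CPM in CreER knockouts. It held 40.4, 29.8, 16 and 18.7 CPM in Mx1Cre controls and 5.6, 5.67, 3.55 and 5.07 CPM in Mx1Cre knockouts. Knockouts lay below controls without overlap in both lines, at 56.7% of control with CreER, which was not called, and 19% with Mx1Cre, and the interaction was -1.57 ± 0.34 (edgeR adjusted p = 0.013). Mecom, which encodes the zinc finger factor EVI1, had an interaction of -1.44 ± 0.35, with levels of 10.2, 9.45, 7.11 and 8.82 CPM in Mx1Cre controls against 2.16, 2.48, 2.18 and 1.57 CPM in Mx1Cre knockouts. Runx1, Hoxa9 and Bcl11a were also called. The calls of Mecom and Runx1 were fragile, lost in 11 and 15 of 32 alternatives, and each was lost when either Mx1Cre control 1 or 2, CreER knockout 3, or Mx1Cre knockout 1, 3 or 4 was left out. That of Mecom was also lost without CreER control 4, and that of Runx1 without CreER control 2 or 3, Mx1Cre control 3 or CreER knockout 4. Removal of the length trend took the interaction of Runx1 from -0.59 to -0.13, while the median of all genes moved to 0.13. With the trend centred the list median was -0.19, the all-gene median 0.01, and 4 members were called.

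Receptors and contact proteins of stem cells gave a similar count. Of 24 tested, 7 were called lower and 0 higher, with a median of -0.46. Tek, Eng, Robo4, Slamf1, Vldlr and Ltbp3 were among them. Tek, the angiopoietin receptor, held 24.8, 20.6, 18.1 and 13.7 CPM in CreER controls and 15.2, 5.0, 9.01 and 7.16 CPM in CreER knockouts. It held 11.3, 12.1, 5.77 and 10.3 CPM in Mx1Cre controls and 0.786, 1.27, 0.242 and 0.553 CPM in Mx1Cre knockouts. The Mx1Cre controls overlapped with the CreER knockouts, and the Mx1Cre knockouts were below all other libraries. Tek fell to 7.21% of control with Mx1Cre and stood at 47% with CreER, which was not called, and the interaction was -2.61 ± 0.53 (edgeR adjusted p = 0.0083). Slamf1, which encodes CD150, had an interaction of -2.59 ± 0.52 and fell to 10.9% of control with Mx1Cre. In the libraries labelled female, 2 or 3 per group, 0 of these 7 kept an adjusted p under 0.05, and Tek, Slamf1 and Ltbp3 were among the losses. Of all 616 called genes, 154 kept their call in that smaller set.

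Megakaryocyte, red cell and mast cell genes differed more than stem cell genes by their medians, but not they alone. Medians were also further below 0 for B cell (-1.01), dendritic cell (-0.81) and monocyte and macrophage genes (-0.68). The same held for lymphoid priming (-0.56) and neutrophil granule genes (-0.55). It did not hold for T and NK cell (-0.418) or endothelial and stromal genes (-0.196). Of 14 megakaryocyte genes, 6 were called lower, Gp1bb, Pf4, Rab27b, Treml1 and F2r among them, with a median of -0.82. Rab27b, a GTPase of platelet granule release, held 10.9, 8.56, 6.86 and 10.9 CPM in Mx1Cre controls and 0.589, 1.04, 0.807 and 1.48 CPM in Mx1Cre knockouts. With CreER it went from 21.8, 20.6, 15.8 and 24.1 CPM to 15.5, 17.1, 7.65 and 15.4 CPM, which overlapped and was not called, and the interaction was -2.67 ± 0.38 (edgeR adjusted p = 0.00047). Without CreER knockouts 2 and 3 there were 4 calls in the megakaryocyte list, and when 1 library was left out at a time there were 2 to 7. Summed levels of the 14 genes were 638 to 841 CPM in CreER controls, 419 to 535 in CreER knockouts, 306 to 459 in Mx1Cre controls and 157 to 185 in Mx1Cre knockouts.

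Of 20 erythroid genes, 6 were called lower and 0 higher, with a median of -1.58. Gata1, the erythroid and megakaryocytic GATA factor (chromosome X, 7959260 to 7976663), held 75.2, 58.7, 53.8 and 59.5 CPM in CreER controls and 50.9, 52.1, 38.4 and 38.1 CPM in CreER knockouts. In Mx1Cre controls it held 41.4, 31.0, 15.6 and 26.1 CPM and in Mx1Cre knockouts 4.91, 5.06, 5.97 and 6.91 CPM. The Mx1Cre knockouts were below all other libraries, and the interaction was -1.86 ± 0.31 (edgeR adjusted p = 0.0018). Car1, carbonic anhydrase of red cells, held 212, 146, 40.0 and 45.5 CPM in Mx1Cre controls and 8.45, 8.58, 5.41 and 17.6 CPM in Mx1Cre knockouts. It stayed at 146, 152, 116 and 196 CPM in CreER controls against 117, 181, 104 and 131 CPM in CreER knockouts. Mx1Cre controls 1 and 2 were female and controls 3 and 4 male by label, and Car1, Klf1 and Aqp1 all stood high in the females and low in the males of that group. The interaction of Car1 was -3.28 ± 0.61, -3.08 with sex as a covariate and -4.45 in the libraries labelled female, both by labels that 2 CreER knockouts go against. Klf1, the erythroid Krüppel-like factor, had an interaction of -2.02 ± 0.48 and that of the water channel gene Aqp1 was -2.35 ± 0.50. Klf1 lost its call without Mx1Cre control 2 or without Mx1Cre knockout 3 and kept it with the sex covariate. Epor and Ermap were the other 2 called members. Leaving out 1 library at a time left 3 to 9 calls in the erythroid list, and libraries labelled female gave 12 of 22 tested, also all lower. Over all genes the libraries labelled female gave 179 lower and 7 higher calls. Against this, the globin gene Hbb-b1, which is not in the list, was called higher, with an interaction of 2.48 ± 0.52. It held 5.6, 6.71, 5.97 and 10.4 CPM in Mx1Cre knockouts and at most 2.63 CPM in every other library. The globin genes tested in the list, Hba-a1 and Hbb-bs, were not called, so this low-level entry does not stand for globin expression as a whole. Reads of the near-identical globin copies may be shared between them.

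Of 14 mast cell and basophil genes, a list that also holds the eosinophil granule genes Prg2 and Epx, 5 were called lower and 0 higher, with a median of -1.50. The 5 were Il1rl1, Ms4a2, Fcer1a, Prg2 and Epx. Il1rl1, the receptor of interleukin 33, held 39.6, 35.7, 33.3 and 34.0 CPM in CreER controls and 27.4, 25.7, 32.6 and 25.2 CPM in CreER knockouts. With Mx1Cre it went from 28.5, 21.5, 13.3 and 16.8 CPM to 4.71, 5.06, 5.16 and 5.99 CPM. The groups of the Mx1Cre line did not overlap, and the interaction was -1.57 ± 0.26 (edgeR adjusted p = 0.0014). Prg2 was far from even within groups: CreER controls held 24.6, 10.3, 35.4 and 4.91 CPM and CreER knockouts 16.1, 95.2, 34.2 and 69.7 CPM, while Mx1Cre controls held 198, 143, 44.1 and 68.4 CPM and Mx1Cre knockouts 36.0, 17.7, 13.8 and 11.4 CPM. Its interaction was -4.07 ± 0.85 (edgeR adjusted p = 0.0097), that of Epx -4.78 ± 1.02, and for both the CreER effect was not called. The summed level of the list was 381 to 491 CPM in Mx1Cre knockouts and 915 to 2030 CPM in the other 12 libraries.

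Among lists of other lineages, neutrophil and monocyte genes stood higher with Mx1Cre by summed level, and T and NK cell genes were lower in both knockouts. Multipotent progenitors can express genes of single lineages at low level, so these lists do not identify mature cells in the sort. Summed levels of 20 neutrophil granule genes ran from 5400 to 17200 CPM in the 8 CreER libraries and from 21500 to 31400 CPM in the 8 Mx1Cre libraries. Their interaction was called in 0 of 20 by edgeR, with 3 at an unadjusted p under 0.05 and 0 by DESeq2 or limma-voom, and the list median was -0.55. Summed levels of 22 monocyte and macrophage genes were 538 to 1440 CPM with CreER and 1540 to 2160 CPM with Mx1Cre, and 2 of the 22 were called lower. One was Fn1, fibronectin, at 51.2, 48.9, 77.5 and 95.8 CPM in Mx1Cre controls, 5.11, 17.3, 6.29 and 5.99 CPM in Mx1Cre knockouts and at most 5.53 CPM in each CreER library. Its interaction of -3.73 ± 0.59 therefore rested on a high level in Mx1Cre controls. The other was Irf8, an interferon regulatory factor needed for monocytes and dendritic cells, at 517, 524, 405 and 444 CPM in Mx1Cre controls, 248 to 282 CPM in Mx1Cre knockouts and 120 to 251 CPM with CreER. Its interaction of -1.05 ± 0.27 lost its call in 13 of 32 alternatives, 10 of them with a single library left out. T and NK cell genes summed to 45.5 to 61.6 CPM in CreER controls and 32.8 to 44.1 CPM in CreER knockouts, and to 47.0 to 49.1 CPM in Mx1Cre controls and 21.8 to 32.2 CPM in Mx1Cre knockouts, without overlap of knockout and control in either line. B cell genes summed to 134 to 300 and 178 to 414 CPM in CreER controls and knockouts and to 283 to 546 and 294 to 515 CPM in Mx1Cre controls and knockouts, which overlapped. In these lists 1 gene of each list was called lower, Cd79b of 11 and Tcf7 of 12. Of 19 multipotent and lymphoid priming genes 2 were called lower (Il7r and Dntt), of 11 dendritic cell genes 1 (Tcf4), and of 9 endothelial and stromal genes 1 (Pdgfrb). No gene of these lists was called higher. Cd79b, Tcf7, Dntt, Tcf4 and Pdgfrb each lost their call in more than 10 of 32 alternatives. The part of cell composition in the interaction was not tested.

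In 3 genes the 2 knockouts had called effects of opposite sign. Klrb1f, a C-type lectin receptor gene of the natural killer gene complex (chromosome 6, 129045837 to 129059724), held 3.09, 3.02, 4.81 and 3.19 CPM in CreER controls and 8.55, 7.1, 7.05 and 6.15 CPM in CreER knockouts. It held 19.5, 17.7, 11.4 and 12.8 CPM in Mx1Cre controls and 10.6, 11.6, 8.96 and 9.86 CPM in Mx1Cre knockouts. The rise with CreER was without overlap and the fall with Mx1Cre overlapped slightly, and the knockouts of the 2 lines ended closer together than the controls. The interaction was -1.61 ± 0.28 (edgeR adjusted p = 0.0025) and kept its call in all 32 alternatives. Ptpro, a receptor tyrosine phosphatase gene, rose by 1.25 ± 0.31 with CreER and fell by 0.73 ± 0.26 with Mx1Cre. Papss2, which makes the sulfate donor of sulfation, rose by 1.01 ± 0.24 and fell by 0.66 ± 0.23. All 3 were higher in Mx1Cre than in CreER controls.

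The genes that responded more upward with Mx1Cre included several feedback targets of RAS and ERK signalling, the kinase cascade that carries growth factor signals. Of 16 tested, 5 were called higher and 0 lower (Etv4, Etv5, Dusp4, Dusp6 and Ccnd1), beside 0.688% and 3.68% of all genes, with a median of 0.29. The list was chosen with earlier results of these data known. An interaction below 0 was found for 5 of the 16, the lowest -0.81, and the Mx1Cre knockout raised 5 members and lowered 1. Summed levels of the list overlapped within each line, at 565 to 745 CPM in Mx1Cre controls and 586 to 782 CPM in Mx1Cre knockouts. With CreER they were 730 to 1010 and 796 to 917 CPM. Etv5, an ETS factor induced by ERK (chromosome 16, 22381313 to 22439570), held 26.8, 36.7, 21.4 and 30.9 CPM in CreER controls and 36.7, 30.7, 38.2 and 36.9 CPM in CreER knockouts. It held 9.03, 11.5, 11.7 and 12.7 CPM in Mx1Cre controls and 31.7, 38.2, 32.8 and 38.7 CPM in Mx1Cre knockouts. The Mx1Cre controls were the group that stood apart, below all 12 other libraries, and the knockouts of the 2 lines overlapped. The control difference was -1.37 ± 0.15, the knockout difference -0.01 ± 0.14, and the interaction 1.36 ± 0.21 (edgeR adjusted p = 0.00099).

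Its paralog Etv4 (chromosome 11, 101769747 to 101785310) showed the same pattern at low counts. Mx1Cre controls held 0, 0, 0.0836 and 0.137 CPM, 3 counts in all, and Mx1Cre knockouts 1.47, 1.65, 3.07 and 3.13 CPM, 39.3-fold higher (95% exact interval 13.1 to 193). CreER controls held 2.4, 3.7, 1.77 and 4.29 CPM and CreER knockouts 3.9, 1.63, 3.99 and 2.73 CPM, with full overlap. Ccnd1, cyclin D1, held 90.8, 91.4, 53.4 and 90.2 CPM in CreER controls, 76.8, 82.2, 69.2 and 70.4 CPM in CreER knockouts, 17.8, 17.0, 25.8 and 25.6 CPM in Mx1Cre controls and 41.2, 60.1, 64.9 and 66.9 CPM in Mx1Cre knockouts. Again the Mx1Cre controls were lowest, with an interaction of 1.56 ± 0.26 (edgeR adjusted p = 0.0016). Dusp6, an ERK phosphatase, had an interaction of 0.89 ± 0.24, with Mx1Cre controls at 18.9 to 32.2 CPM and all other libraries at 42.9 to 87.7 CPM. The control minus control difference was called below 0 for Etv4, Etv5, Ccnd1, Dusp4 and Dusp6, and among the 97 higher genes in all it was called below 0 for 46 and above 0 for 0. In 29 of the 97 (29.9%) the 4 Mx1Cre controls were below all 12 other libraries, as in 2.25% of genes tested. Etv4, Etv5 and Ccnd1 kept their calls in all 32 alternatives and Dusp6 lost its call in 14, with 11 of the 16 libraries left out singly among them. The sprouty gene Spry1 had an interaction of -0.02 and was not called. The part of the inducing agents in these control levels cannot be told apart from that of the Cre lines.

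**Figure D3:**
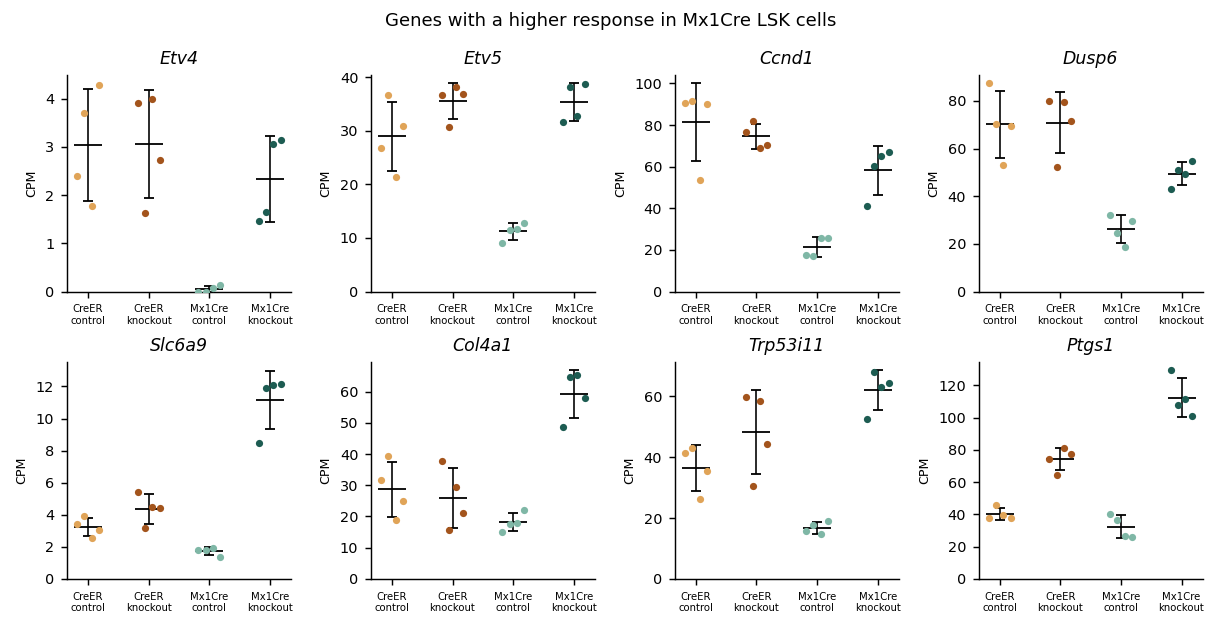
CPM of 8 genes with a called higher interaction in each of the 16 LSK libraries. Points are libraries, the bar is the group mean and the whiskers 1 SD (n = 4), on linear axes from 0. In the upper panels (Etv4, Etv5, Ccnd1 and Dusp6) the Mx1Cre controls are the lowest group, and in the panels of Slc6a9, Col4a1 and Ptgs1 the Mx1Cre knockouts are the highest.

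A second pattern among the higher genes was a Mx1Cre knockout above all other libraries. Slc6a9, a glycine transporter gene (chromosome 4, 117835258 to 117869305), held 3.43, 3.89, 2.55 and 3.04 CPM in CreER controls and 5.4, 3.14, 4.5 and 4.44 CPM in CreER knockouts. Mx1Cre controls held 1.82, 1.79, 1.92 and 1.37 CPM and Mx1Cre knockouts 8.45, 11.9, 12.1 and 12.2 CPM. The Mx1Cre controls of Slc6a9 also lay below every other library, with a called control difference of -0.90 ± 0.23 (edgeR adjusted p = 0.0093). Slc6a9 thus showed both patterns. The gene rose to 646% of control with Mx1Cre and had the lowest p of all named higher genes, with an interaction of 2.26 ± 0.31 (edgeR adjusted p = 0.00031). Col4a1, a basement membrane collagen gene, held 48.7 to 65.3 CPM in Mx1Cre knockouts and 15.1 to 39.3 CPM elsewhere, an interaction of 1.85 ± 0.33. Ptgs1, which encodes cyclooxygenase 1, rose in both lines, by 0.88 ± 0.13 with CreER and 1.79 ± 0.13 with Mx1Cre, and the interaction was 0.91 ± 0.19. Spp1, osteopontin, had an interaction of 1.81 ± 0.40 with 13.3 to 29.9 CPM in Mx1Cre knockouts and at most 7.16 CPM elsewhere.

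Genes of amino acid supply split in both directions. Of 19 solute carriers for amino acids, 3 were called higher (Slc6a9, Slc1a4 and Slc3a2) and 3 lower (Slc6a15, Slc7a8 and Slc36a4), with a median of 0.03. Slc1a4, which carries serine and alanine, had an interaction of 1.58 ± 0.33, and Slc7a8, a subunit of a large neutral amino acid exchanger, one of -1.23 ± 0.22. The tRNA synthetase genes Cars and Aars had interactions of 0.83 ± 0.16 and 0.75 ± 0.15, with no called CreER effect and rises of 0.84 ± 0.11 and 0.76 ± 0.11 with Mx1Cre. Aars held 208, 171, 237 and 228 CPM in Mx1Cre knockouts and 106 to 146 CPM in Mx1Cre controls, while CreER libraries held 157 to 191 CPM. The Mx1Cre controls were thus below all other libraries, and the Mx1Cre knockouts overlapped with the CreER libraries. Jdp2, a repressor of AP-1 and ATF sites, had an interaction of 0.75 ± 0.15, Snap47 1.00 ± 0.16, Endod1 0.66 ± 0.13 and Trp53i11 1.49 ± 0.26. These calls were not kept in the libraries labelled female for Slc6a9, Col4a1, Ptgs1, Spp1, Slc1a4, Slc7a8, Cars, Aars, Jdp2, Snap47, Endod1 or Trp53i11. Of all 616 called genes, 154 kept their call there.

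Several programs had few or no interaction calls. Interferon-stimulated genes, the known targets of the agent used with Mx1Cre, were lower in Mx1Cre than CreER controls by a median of -1.94 over 37 genes. Their summed level was 4980 to 8500 CPM in CreER controls, 4930 to 7240 in CreER knockouts, 2260 to 2630 in Mx1Cre controls and 2380 to 2590 in Mx1Cre knockouts. The Cre lines did not overlap, while knockout and control within each line did, and the interaction was called in 0 of 37 by edgeR, with 4 at an unadjusted p under 0.05, 2 called higher by DESeq2 and 0 by limma-voom. The 26 oxidative phosphorylation genes had a median interaction of 0.29, with 0 called by edgeR, DESeq2 or limma-voom and 6 at an unadjusted p under 0.05. Without Mx1Cre knockout 2, 6 of the 26 were called higher, and 5 of 14 glycolysis genes, for which 0 were called with all libraries, 5 had an unadjusted p under 0.05, and DESeq2 and limma-voom also called 0. With the centred length trend removed the oxidative phosphorylation median was 0.12. Without that library there were also 4 higher calls in the S phase list, 3 in the G2 and M phase list, 2 among ribosomal protein genes and 2 among interferon-stimulated genes, and 2 lower calls among immediate early genes. Over all genes 1037 were then called higher and 1519 lower, far more than the 97 and 519 with all libraries. These list counts are therefore no result particular to the lists. Ribosomal protein genes (34, median 0.03) had 0 calls by each of the 3 tools and 1 unadjusted p under 0.05. The 30 S phase and 37 G2 and M phase genes had medians of 0.13 and 0.21, with 0 called by edgeR or limma-voom, 1 of each list called higher by DESeq2, and 4 and 5 at an unadjusted p under 0.05. Immediate early genes (17) had 0 calls by the 3 tools and 3 unadjusted, and STAT5 and cytokine response genes (15) had 0 by edgeR and limma-voom, 1 lower by DESeq2 and 2 unadjusted. Of 10 estrogen receptor response genes, listed because tamoxifen acts on that receptor, Ccnd1 alone was called, and of 19 p53 targets 3 were called lower (Trp53inp1, Zmat3 and Plk2). Trp53inp1 and Zmat3 lost their calls in 22 and 19 of 32 alternatives.

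**Figure D4:**
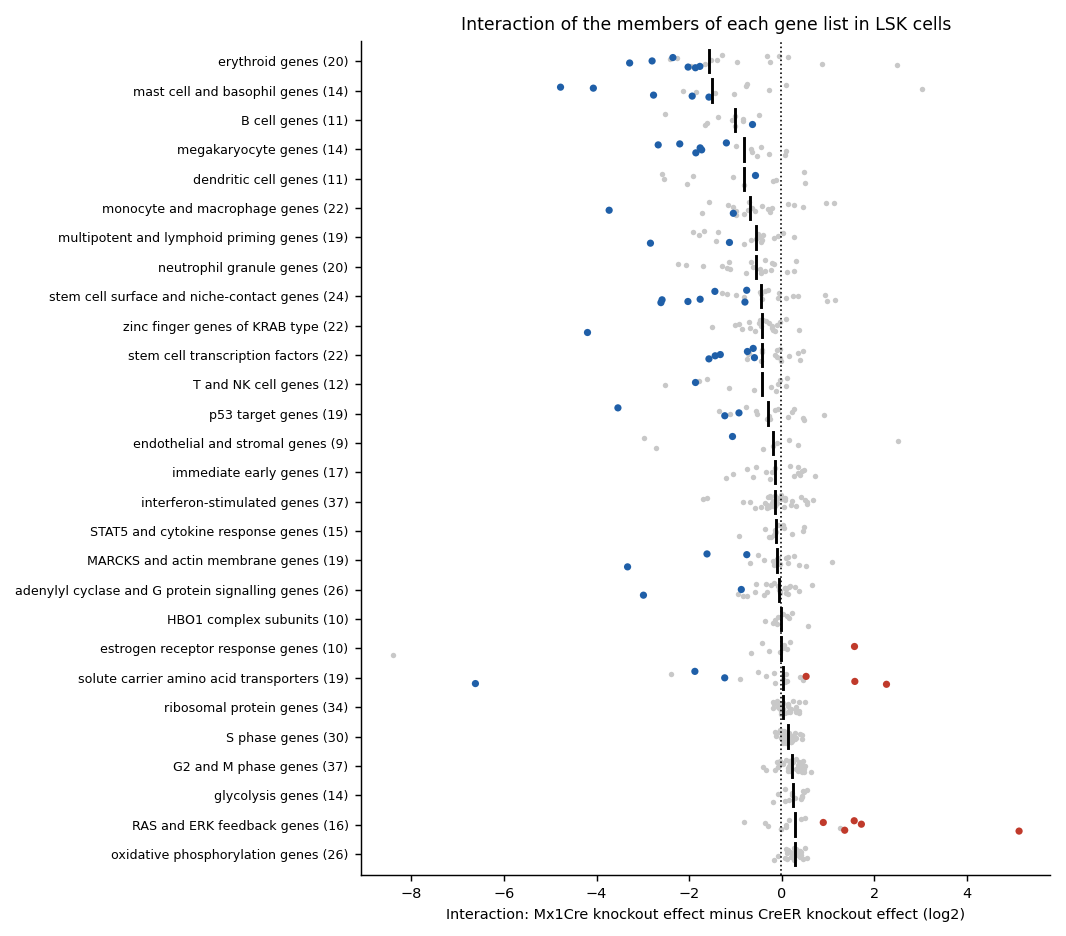
Interaction (log2) of each tested member of the 28 gene lists in LSK cells, with the number tested in brackets. Blue and red points are members with a called lower or higher interaction, grey points are not called, black ticks are list medians and the dotted line is the median of all genes, -0.02. Erythroid and mast cell lists have the lowest medians, at -1.58 and -1.50, and the called members of the RAS and ERK list lie above 0. The lowest point of the figure is an uncalled member of the estrogen receptor list without counts in Mx1Cre knockouts, and its fitted position is not a bound.

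The same mice gave progenitor libraries, in which the interaction was fitted separately. It was called for 41 of 13692 genes, 0.299%, of which 32 were lower and 9 higher. Of the 41 genes, 35 were also among the 616 of LSK cells, which is 85.4% of the progenitor genes and 5.68% of the LSK genes. Since both cell types come from the same mice this is not an independent repeat. Zfp970 had a progenitor interaction of -4.73, with 14.6, 12.5, 12.4 and 9.64 CPM in CreER controls, 7.28, 6.88, 6.35 and 4.88 CPM in CreER knockouts, 14.2, 10.2, 13.7 and 11.1 CPM in Mx1Cre controls and 0.188, 0.340, 0.107 and 0.295 CPM in Mx1Cre knockouts. The 4 Mx1Cre knockouts were again far below all other libraries, and the CreER difference, at -0.95, was not called in progenitors. Ica1 (-3.13), Marcks (-4.22), Gspt2 (-3.24), Ppic (-2.75), Fkbp9 (-2.16) and Fmnl2 (-3.35) were also called in progenitors, as were Etv5 (1.28), Trp53i11 (2.44) and Col4a1 (3.50). Of these the progenitor call of Etv5 was lost in 20 of 31 alternatives, 14 of them with a single library left out (all but CreER control 3 and Mx1Cre knockout 4). That of Fmnl2 was lost in 8, 5 of them without CreER control 1, 2 or 4, Mx1Cre control 3 or Mx1Cre knockout 3, and that of Ppic in 3. Limma-voom was among these for all 3 genes. Zfp970, Ica1, Marcks and Gspt2 kept theirs in all 31. Adcy6, Cavin2, Trib2 and Cd55 were not, with interactions of 0.51, 0.10, 0.27 and -0.19. Pf4, Robo3 and Parm1 were called in both cell types with opposite signs. The platelet factor gene Pf4 had an interaction of -1.73 in LSK cells and 2.73 in progenitors, where Mx1Cre controls held 2.59, 0.413, 0.979 and 1.44 CPM, Mx1Cre knockouts 4.45, 6.79, 3.75 and 4.86 CPM and CreER libraries 6.05 to 18.2 CPM. Whether the interactions of the 2 cell types differ was not tested. In 31 alternatives the progenitor signs of these 3 genes were kept, but the progenitor call was lost in 17 for Pf4, 15 for Parm1 and 4 for Robo3, with limma-voom among them for each. Leaving out 1 library ended the call of Pf4 in 13 of 16 cases, that of Parm1 in 9 and that of Robo3 in 0. Without progenitor CreER control 1 or 4 the progenitor count was 25.

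The number of called genes depended on single libraries. Without Mx1Cre knockout 2 it was 2556, 1519 lower and 1037 higher, among them all 616 genes called with 16 libraries. It was 319 without Mx1Cre knockout 3, 403 without Mx1Cre knockout 1, 392 without Mx1Cre knockout 4, 388 and 334 without Mx1Cre control 1 or 2, and 386 without CreER knockout 3, and stayed within 1.5-fold of 616 without each of the other 9. Lower calls numbered 343, 305 and 287 without Mx1Cre control 1, Mx1Cre control 2 or Mx1Cre knockout 3. Higher calls, with 97 at the outset, numbered 29 to 59 without any of CreER controls 2, 3 and 4, Mx1Cre controls 1, 2 and 4, CreER knockout 3 or Mx1Cre knockouts 1, 3 and 4, and 156 without CreER knockout 1. With the gene length trend of each library removed the split was 635 higher to 425 lower, and the median of all genes moved from -0.02 to 0.13. When the trend was centred in each library so that this shift was not introduced, the split was 131 higher to 451 lower, and 475 of the 616 genes were called. DESeq2 called 367 higher and 862 lower, and limma-voom with sample weights 823 and 1425. Without the 2 libraries that went against their sex label 310 genes were called, 290 of them lower. Calls were then lost for Runx1, Klf1, Ptpro, Dusp6, Spp1, Irf8, Il7r, Dntt, Cd79b, Tcf4, Tcf7, Pdgfrb, Myo10, Myo1d, Rgs10, Plk2, Trp53inp1, Zmat3 and the GTPase gene Gem, with their directions kept. The lists then held 4 lower calls for stem cell transcription factors, 7 for surface and niche genes, 4 for megakaryocyte, 3 for erythroid and 4 for mast cell genes, and 3 higher calls for RAS and ERK feedback genes. Of the 71 called genes chosen for description, 27 kept their call in all 32 alternatives and 0 changed sign in any.

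**Figure D5:**
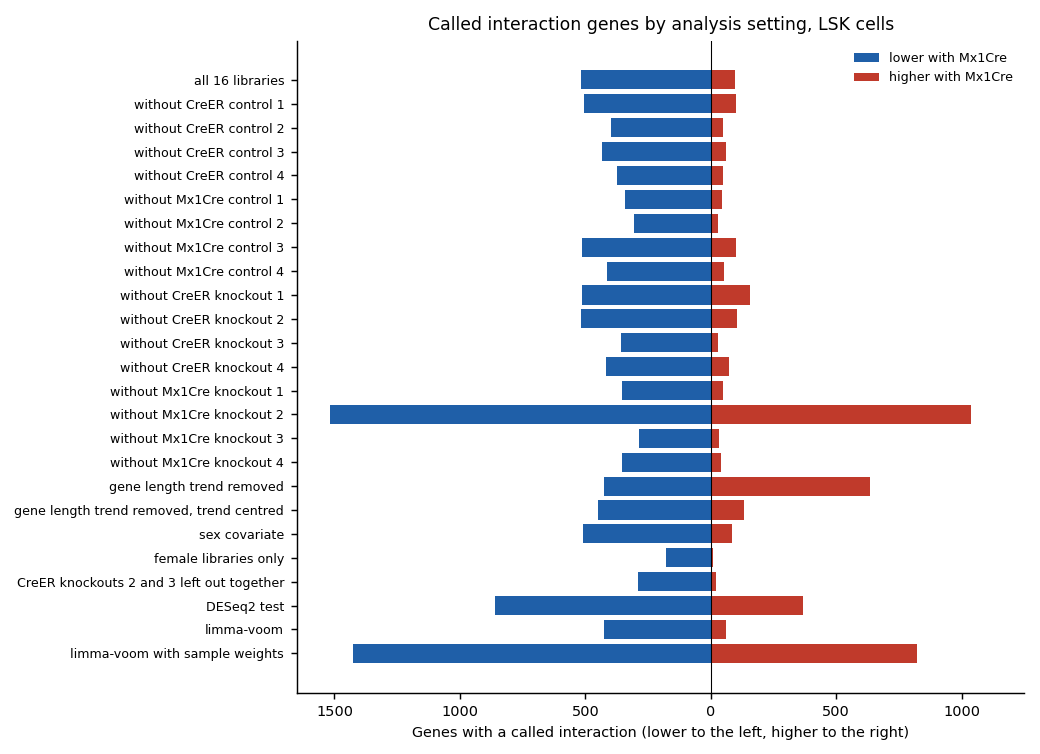
Number of genes with a called interaction in LSK cells, lower to the left and higher to the right, with all 16 libraries, without each library in turn and under 8 other analyses. The bars are longest without Mx1Cre knockout 2 (1519 lower and 1037 higher), and lower genes outnumber higher genes in each bar pair except that of the uncentred length trend (425 and 635).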

How the data were processed

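RNA was sequenced from sorted LSK cells and progenitors of the same mice. The deposited values are counts per gene, made by the authors with featureCounts on mm10, per the submitters' processing notes. Neither the aligner nor versions nor strandedness could be stated from the labels. All 32 library tables held the same values as the series table, no per-sample column was left unmapped (0), and 1904 gene identifiers without a symbol held 3.81% of LSK counts. Gene positions are those of RefSeq GRCm38.p6, the assembly of mm10, and exon lengths come from the deposited table.

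The 16 LSK libraries were fitted together by edgeR 4.0.16 under R 4.3.3, using TMM factors, filterByExpr (minimum count 10, minimum total 15) and the quasi-likelihood test without robust dispersions. A gene was called at a Benjamini-Hochberg adjusted p under 0.05 over all genes tested. Progenitor libraries had their own fit. A single count is 0.0543 to 0.118 CPM, and intervals and floors (3 counts, 95%) cover counting error only. The test was checked on counts simulated with changes in Mx1Cre knockouts only. They held no control differences, length trend or outlying library, so the check does not cover these features of the data. Named genes are first the 12 with the lowest p and the 6 with the largest interaction in each direction, and genes with opposite calls. These all had a called interaction and a mean log2 CPM of at least 1. Without that limit on the mean, up to 4 called members of each list with the lowest p were added. The HBO1 subunits were added whether called or not. The rule passes over Xist, Y-linked genes and gene models that have no proper symbol. The text describes part of these, some genes are not reported here, and other genes named as members of a list were added after their values were seen. Members and lists were chosen with earlier results of these data known. Alternatives used DESeq2 1.42.0, limma 3.58.1 (voom, with and without sample weights), other scalings and filters, sex or replicate number as terms, removal of the gene length trend, subsets of libraries, and each library left out. Robust dispersions, the exchanged sexes of CreER knockouts 2 and 3 and the centred length trend were chosen after seeing the data.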

Additional observations from a re-analysis of the deposited data

Results flagged for a closer look

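The knockout effects of the Cre lines differed by the interaction test for 616 genes, 97 higher and 519 lower, and in progenitors for 41. Effects called in opposite directions were found for Ptpro (interaction -1.98), Papss2 (-1.67) and Klrb1f (-1.61).

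Single libraries stood apart from the other 3 of their group in 20 of 326 groups checked, by a gap to the nearest of them above Dixon's critical value. Chance gives about 1 in 20. In CreER control 3, Ccnd1 at 53.4 CPM was the lowest of the group, and Gspt2 at 17.3 and Klrb1f at 4.81 CPM the highest. In other CreER controls Meaf6 was low at 37.2 CPM (control 1) and Snap47 high at 19.9 CPM (control 2). Among CreER knockouts Jade2 was high at 93.4 CPM (knockout 1) and Ing4 low at 42.3 CPM (knockout 2), and CreER knockout 4 was closest to its group mean, at 0.352 log2 against 0.479 to 0.482. Among Mx1Cre controls, Kcnj5 was high at 6.37 CPM and Smo low at 75.9 CPM in control 1, and Brpf1 was high at 142 CPM in control 2. In control 4 Trp53inp1 (56.7 CPM) and Zfp970 (17.8 CPM) were high and Kat7 (66.6 CPM) low. In Mx1Cre knockout 2, Fn1 (17.3 CPM), Endod1 (86.0 CPM) and Ptprf (0.055 CPM) were the highest of the group. Slc6a9 was low at 8.45 CPM in Mx1Cre knockout 1, and in Mx1Cre knockout 4 Ica1 was low at 3.78 CPM and Plxdc2 high at 0.0922 CPM. Ptprf and Plxdc2 held 1 count in all in Mx1Cre knockouts. A group with a single count always passes the critical value, so these flags say nothing about the library.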

How the results depend on the processing

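Direction was kept by each of the 71 called genes described here in all 32 alternatives, and 27 of them kept their call throughout. The number of genes with a called LSK interaction, 616 (97 higher, 519 lower), was 1229 (367, 862) with DESeq2, 486 (61 higher) with limma-voom, 2248 (823, 1425) with sample weights, 1060 (635 higher) with the length trend removed, 186 (7, 179) in libraries labelled female, 310 (20, 290) without CreER knockouts 2 and 3 and 193 (10, 183) when tested against a fold of 1.5. Leaving out 1 library gave 319 to 2556 (29 to 1037 higher, 287 to 1519 lower). In the same way the CreER effect, 445 genes, gave 889 with DESeq2, 1278 with sample weights, 46 in libraries labelled female, 33 without CreER knockouts 2 and 3 and 6 against the fold, and 159 to 714 without 1 library. The Mx1Cre effect, 4378 genes, gave 1017 in libraries labelled female, 853 against the fold and 3157 to 5674. The control difference, 3054 genes, gave 4840 with sample weights, 1457, 579 and 2107 to 3554, and the knockout difference, 3950 genes, gave 1286, 982 and 2855 to 5171. The progenitor interaction, 41 genes, gave 120 with DESeq2, 19 with limma-voom, 6 in libraries labelled female, 26 without CreER knockouts 2 and 3 and 25 to 60 without 1 library. The causes of these shifts were not tested, other than that subsets hold fewer libraries. Other scalings, filters and the sex covariate by label gave 595 to 633 LSK interaction genes, and the covariate with the sexes of CreER knockouts 2 and 3 exchanged gave 710 (134 higher). With the replicate block, 538 were called, 493 of them among the 616, and Cd79b, Tcf4, Dntt, Zmat3, Trp53inp1 and Rgs10 lost their calls. Over all groups same-numbered libraries did not deviate together (mean r 0.023 over 24 pairs, -0.304 to 0.258), so the numbers do not pair the 4 groups. Mx1Cre controls and knockouts of the same number did (0.194, 0.258, 0.209 and 0.147), where numbers 1 and 2 are female and 3 and 4 male, and control 4 correlated more with knockout 3 (0.193). With the replicate block the Mx1Cre effect gave 4221 genes in place of 4378.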

Other observations

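Those of the 616 genes that had a chromosome position lay on all autosomes and the X chromosome. The share called ran from 2.92% of tested genes on chromosome 13 to 7.49% on chromosome 6 (51 of 681) and 7.18% on chromosome 9 (53 of 738). It was 4.37% of all genes tested, with or without a position. Among genes called in both LSK cells and progenitors, Ahr, the aryl hydrocarbon receptor, had interactions of -2.62 and -3.59.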
